A study of Mus musculus with 22 samples.

Results

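The cytosolic ribosomal protein genes were described in CA1 hippocampus of mice fed ad libitum (AL) or kept on calorie restriction (CR). They were taken from the deposited matrix by symbol, as Rpl or Rps with a number and at most a closing a, x or l, together with Rplp0, Rplp1, Rplp2 and Rpsa. Symbols of pseudogenes and of the Rps6k kinases did not enter. This gave 80 of 23361 genes, 49 of the large (60S) and 31 of the small (40S) subunit. The study compared 22 female mice of a Swiss Webster by DBA/C57BL6 F1 background, 1 library per mouse: AL at 5 months (n = 5), CR at 5 months (n = 5), AL at 15 months (n = 6) and CR at 15 months (n = 6). CR mice ate less carbohydrate than AL mice, and both diets began in young adulthood, so that the older mice had been on them for longer. All groups were wild-type. Values are FPKM, fragments scaled to transcript length and to the fragments mapped in the library, as the authors deposited them. Each library is bulk RNA of microdissected tissue, in which fewer cells of a type and less RNA per cell cannot be told apart.

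A ribosome joins a large subunit, which forms peptide bonds, to a small subunit, which reads the mRNA, and nearly every ribosomal protein is present in a single copy per subunit. The acidic P proteins, Rplp0, Rplp1 and Rplp2, form a stalk that recruits the translation factors. Many mRNAs of this family start with a C and a run of pyrimidines, the 5′ terminal oligopyrimidine (TOP) tract, through which growth signalling is known to adjust their translation. The family is also known for its many processed pseudogenes, copies of the mRNA inserted elsewhere in the genome.

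Those copies matter for reading the values of 4 members. The matrix has 29 rows outside the family, for 22 members, whose GENCODE transcript matches the member's coding sequence at 90% identity or more over at least 80% of its length. Not all of these rows are pseudogenes. Some belong to other genes, such as Ndfip2 and Med21, of which an annotated transcript holds the match. In 4 cases the matching row stood above the member itself. The reads were 50 bases long, and the authors weighted reads that mapped to several places. The stretches below show how alike the pairs are: the 61 coding bases around the first difference, with the differing base in capitals (mouse, GRCm38). Rpl30 lies at chr15:34440505-34443640 on the minus strand and Gm12191 at chr11:49678710-49679057 on the minus strand. Rpl26 lies at chr11:68901583-68906989 and Gm15772 at chr5:3236431-3236868, both on the plus strand. Rpl34 lies at chr3:130726831-130730398 on the minus strand and Rpl34-ps1 at chr6:71124610-71124963 on the plus strand.
Rpl30: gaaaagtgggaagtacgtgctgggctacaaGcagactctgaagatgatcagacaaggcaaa
Gm12191: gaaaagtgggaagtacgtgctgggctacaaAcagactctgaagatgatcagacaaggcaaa
Rpl26: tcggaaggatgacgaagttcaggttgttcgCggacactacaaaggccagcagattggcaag
Gm15772: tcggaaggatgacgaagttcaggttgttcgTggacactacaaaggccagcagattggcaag
Rpl34: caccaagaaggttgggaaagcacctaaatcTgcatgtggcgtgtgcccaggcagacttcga
Rpl34-ps1: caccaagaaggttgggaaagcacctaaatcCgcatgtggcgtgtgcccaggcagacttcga

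Rpl30 and Gm12191 differed at 1 of 345 coding bases, Rpl26 and Gm15772 at 2 of 435, and Rpl34 and Rpl34-ps1 at 2 of 353. Of all stretches of 50 bases in the coding sequence, 83.1% of those of Rpl30 were found exactly in its copy, 74.1% of those of Rpl26 and 71.7% of those of Rpl34. The fourth pair, Rps27 at chr3:90212522-90213651 and the Rps27 retrogene (Gm9846 in the matrix) at chr9:114982366-114982739, did not differ at any of 252 bases. Gm12191, Gm15772 and Rpl34-ps1 are annotated as processed pseudogenes, whereas the Rps27 retrogene is annotated as protein coding.

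The copies carried nearly all of the summed level in every library. Over the 22 libraries Rps27 held 1.21 to 9.23% of the sum of its pair, Rpl34 3.14 to 7.38%, Rpl26 2.39 to 8.38% and Rpl30 7.58 to 13.6%. As a mean level, Rps27 stood at 13.8 FPKM beside 485 FPKM for Gm9846. Rpl26 stood at 29.9 FPKM beside 446 FPKM, Rpl30 at 33.0 beside 297 and Rpl34 at 13.2 beside 278. These 4 sums, 499, 476, 330 and 291 FPKM, lie in the range of the other members, so the low listed levels of these 4 genes belong to rows that share most of their sequence and are uncertain. The processed pseudogenes have no introns, and how the fragments were divided within each pair was not tested.

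**Figure D1:**
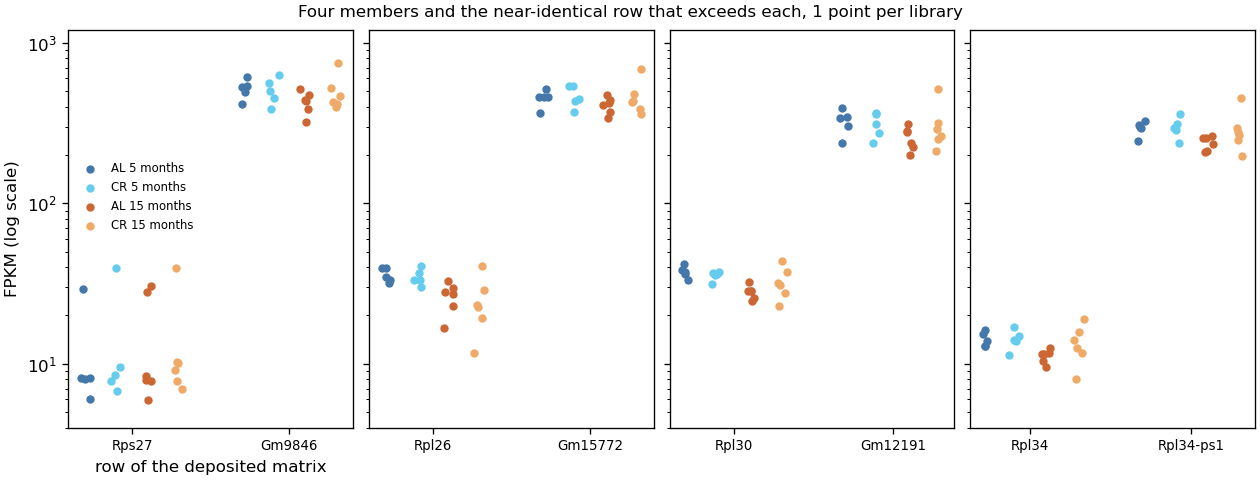
Level in FPKM (log scale) of Rps27, Rpl26, Rpl30 and Rpl34, each beside the near-identical row of the matrix that exceeds it; every point is 1 library, coloured by group. The copies sit between 197 and 748 FPKM and the members between 5.98 and 43.7 FPKM, and Rps27 shows 5 libraries apart from the other 17.

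Rps27, a zinc-finger protein of the small subunit, took 2 separate levels. In 17 libraries it lay between 5.98 and 10.2 FPKM. In the other 5 it lay between 28.2 and 39.5 FPKM: AL 5 months replicate 4, CR 5 months replicate 0, AL 15 months replicates 0 and 5, and CR 15 months replicate 2. The 5 came from all 4 groups. The sum with its retrogene ran without such a step, from 352 to 787 FPKM.

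Most other members were abundant in the tissue. The mean level was 90 FPKM or more for 69 members (95.8 to 702 FPKM), between 10 and 60 FPKM for 8 and under 1 FPKM for 3. The median member stood at 256 FPKM, against 8.91 FPKM over the 16978 genes tested, and 68 members were above the 95th percentile of those genes. The median was 225 FPKM for large and 271 FPKM for small subunit members. The highest were the stalk protein Rplp1 (702 FPKM), Rpl41, the shortest ribosomal protein (576 FPKM), and Rpl38 (551 FPKM). Because FPKM is per length, such levels can be set beside each other, although very short transcripts are the hardest to scale.

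**Figure D2:**
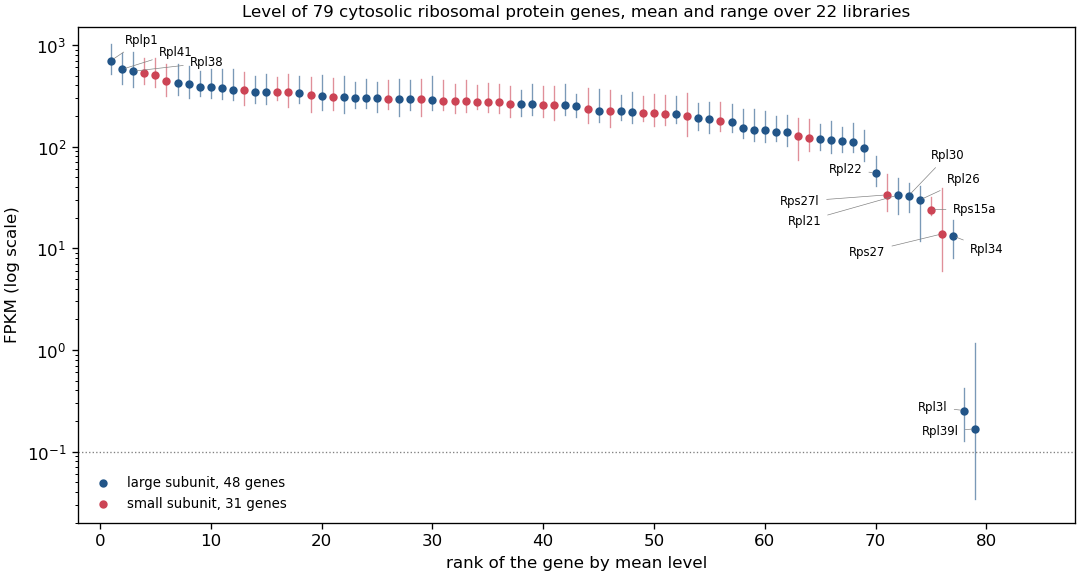
Mean level in FPKM (log scale) of the 79 tested members in order of level; lines span the lowest library above 0 to the highest, and colours mark the subunit. Most members form a plateau from 95.8 to 702 FPKM, 8 lie between 13.2 and 55.0 FPKM, and Rpl3l and Rpl39l lie near the filter of 0.1 FPKM (dotted).

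The other 4 members of the middle class were Rpl22 (55.0 FPKM), Rps27l (33.5), Rpl21 (33.3) and Rps15a (24.0). They are named for their low level after the values were seen. Rpl21 has 76 pseudogene copies in the GENCODE annotation at the same limits, the most of any member. The row BC004004, whose matching transcript is annotated as protein coding, shares 98.5% of the Rpl21 coding sequence and stood at 20.3 FPKM. Rps15a was matched by Rps15a-ps6 (4.11 FPKM) and Rps15a-ps4 (2.23 FPKM). In all, 70 of the 80 members had at least 1 such copy, with a median of 8, and the number of copies had a Spearman rho of -0.08 with the level over 77 members, as a description.

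The paralogs with an l suffix differed widely in level. Rpl3l, a form of Rpl3 found in muscle, matched 74.4% of the aligned Rpl3 coding bases and lay between 0.126 and 0.422 FPKM over the 22 libraries. Rpl39l matched Rpl39 at 85.5% and lay between 0 and 1.18 FPKM. Rpl10l, a form of Rpl10 known from testis, was listed above 0 in 2 of 22 libraries, at 0.0209 and 0.0268 FPKM, and was not tested. Rps27l, a paralog of Rps27 that p53 is known to induce, matched 76.5% of it, has no pseudogene copy at these limits and lay between 23.4 and 53.2 FPKM. So of the l forms only Rps27l was above 1 FPKM in mean.

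Promoters were read where RefSeq had one (GRCm38.p6, 250 bases before to 50 after the start), for 60 of the 80 members. A C at the annotated start followed by at least 4 pyrimidines was found in 13 (21.7%), against 3.01% of 27025 genes. With the start allowed to move by 5 bases, it was found in 28 (46.7%), against 21.2%. On either strand, the ETS core CCGGAA was found in 33 (55.0%) against 16.7%, the YY1 core AAGATGGC in 5 (8.33%) against 3.19%, and the SP1 box GGGCGG in 36 of the 60, against 38.2%. These matches describe the letters only. The stretches from 60 bases before to 15 after the start are shown for 2 of the members that changed with age (Rplp2, Rps27l), for Rps6, the small subunit protein phosphorylated by S6 kinases, for Rps27 and Rpl38, and for Rpl39 beside its nearly silent paralog Rpl39l. Capitals mark a pyrimidine tract that begins with C within 5 bases of the start and whole ETS, YY1 or SP1 matches. In Rps27 the tract and the ETS core overlap. RefSeq gave more than 1 promoter for 10 of the 60 members, which count where any of them matched. The second promoter of Rps27l (its window chr9:66946353-66946427, plus) holds neither a tract nor a motif.
Rplp2 (chr7:141447591-141447665, plus): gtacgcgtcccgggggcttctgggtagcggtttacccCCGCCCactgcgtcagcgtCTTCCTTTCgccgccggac
Rps27l (chr9:66946026-66946100, plus): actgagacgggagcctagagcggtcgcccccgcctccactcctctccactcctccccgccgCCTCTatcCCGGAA
Rps6 (chr4:86857353-86857427, minus): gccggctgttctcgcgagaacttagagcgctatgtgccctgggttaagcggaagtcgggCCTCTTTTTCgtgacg
Rps27 (chr3:90213634-90213708, minus): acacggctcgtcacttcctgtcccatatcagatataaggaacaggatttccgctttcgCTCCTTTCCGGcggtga
Rpl38 (chr11:114668520-114668594, plus): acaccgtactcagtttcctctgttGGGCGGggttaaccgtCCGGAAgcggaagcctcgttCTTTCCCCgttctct
Rpl39 (chrX:37085208-37085282, minus): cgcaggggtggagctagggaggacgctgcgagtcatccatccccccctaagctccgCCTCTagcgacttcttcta
Rpl39l (chr16:10170168-10170242, plus): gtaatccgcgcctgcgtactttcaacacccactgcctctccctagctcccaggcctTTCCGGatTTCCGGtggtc

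Across the 22 libraries the members moved as a block. Each member's log2 level was set against its own mean, and the median over the members gave 1 value per library. Of the 79 tested members, 59 correlated with the median of the other members at r = 0.90 or more (median r = 0.942). These values share libraries and their scaling and are given as a description. The least alike were Rpl39l (r = 0.06), Rpl3l (0.13), Rps27 (0.14), Rpl26 (0.43), Rps15a (0.48), Rpl30 (0.62) and Rpl34 (0.67). These were the near-silent paralogs, Rps15a and the 4 members with a higher copy.

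CR 15 months replicate 2 stood apart. Its members had a median of 0.61 above their own means on the log2 scale, against -0.21 to 0.07 in the other 5 libraries of the group. It held the highest value of 74 of the 79 members among all libraries. The members summed to 29436 FPKM there, against 15352 to 23525 FPKM in the other 21. The main values of its group are given with and without it.

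At 5 months the members summed to 20426 ± 2339 FPKM (mean ± SD) in the 5 AL libraries and to 20335 ± 2697 in the 5 CR libraries. At 15 months they summed to 17395 ± 1625 FPKM in the 6 AL libraries and to 19984 ± 4912 in the 6 CR libraries, or 18093 ± 1833 in the 5 without replicate 2. The 6 AL libraries at 15 months lay between 15352 and 19571 FPKM and overlapped those at 5 months, which lay between 16719 and 22898. The group mean was lowest in AL mice at 15 months for 74 of the 79 members, or 68 without that library. Within a group the coefficient of variation of a member had a median of 11.8% in AL and 13.2% in CR mice at 5 months, 10.2% in AL mice at 15 months and 25.6% in CR mice at 15 months, or 11.5% without replicate 2.

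**Figure D3:**
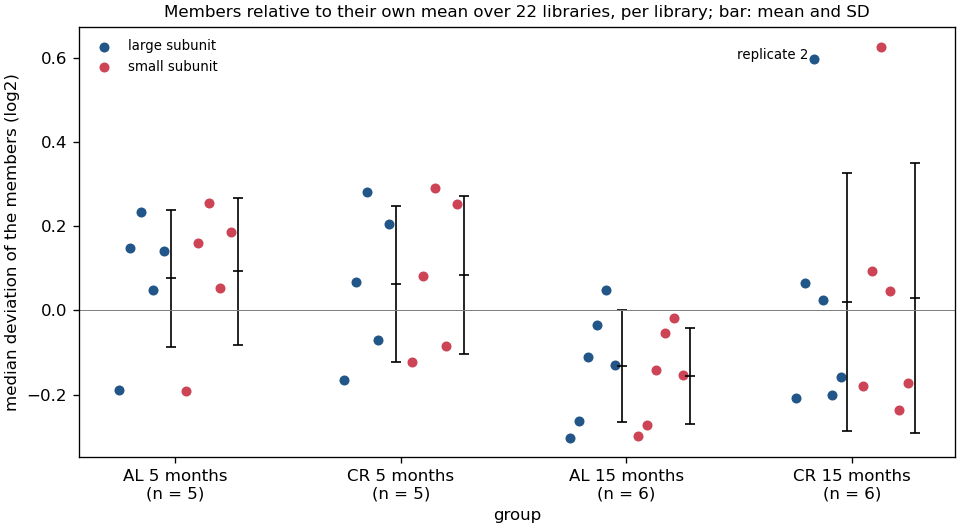
Median deviation (log2) of the large and small subunit members from their own means over all 22 libraries, 1 point per library, with the mean and SD of each group. The subunits sit close together in each library, with a large minus small difference of -0.047 to 0.065. The AL libraries at 15 months reach from -0.30 to 0.05, and CR 15 months replicate 2 lies near 0.6.

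Large and small subunit members rose and fell together from library to library. The large and small medians of the 22 libraries had r = 0.993 and rho = 0.986. The large minus small difference (log2, mean ± SD) was -0.02 ± 0.02 in the 5 AL and -0.02 ± 0.03 in the 5 CR libraries at 5 months, and 0.02 ± 0.02 in the 6 AL and -0.01 ± 0.03 in the 6 CR libraries at 15 months. It was below 0 in 4 of 5 AL libraries at 5 months and above 0 in 5 of 6 at 15 months, a gap of 0.040 between the means, against a pooled SD of 0.024 between libraries of a group. The ranges of the 2 ages overlapped. Taken instead from the medians of the fitted age differences of single members, given below, the large minus small difference was 0.012. Of the 6 CR libraries at 15 months, 4 lay below 0.

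With age in AL mice, 5 members were called, all lower at 15 than at 5 months, among them Rpl30, Rps27l, Rplp2 and Rplp1. That is 6.33% of the 79 members, against 20.6% of all genes tested, and 9.97% called lower. The test was limma's moderated test on log2(FPKM + 0.1) over 16978 genes, and a call is a Benjamini-Hochberg adjusted p under 0.05. The median log2 difference of the members was -0.22, with 77 of 79 below 0, against a median of -0.00 and 50.4% below 0 over all genes. It was -0.21 for the 48 large and -0.22 for the 31 small subunit members. At an unadjusted p under 0.05 there were 17 members (21.5%), against 35.2% of all genes. For 8 members (10.1%) the ranges of the 2 ages were separate, against 14.0% of all genes.

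Both partner proteins of the stalk were among the calls. Rplp1 stood at 689, 798, 896, 732 and 782 FPKM in the 5 AL libraries at 5 months and, in the 6 at 15 months, from 514 to 659 with a median of 572. No library at 15 months reached the lowest at 5 months. Rplp1 fell by 0.43 (log2, SE 0.15, limma adjusted p = 0.0443). Rplp2 stood at 250, 274, 297, 273 and 266 FPKM at 5 months and between 197 and 239 at 15 months (median 219), again without overlap. Rplp2 fell by 0.32 (SE 0.10, limma adjusted p = 0.0304, exact permutation p = 0.00216, the smallest that this design allows). Rplp0, the stalk base, had a mean of 161 ± 11.3 FPKM (SD, n = 5) at 5 months and 136 ± 8.94 (n = 6) at 15 months, a difference of -0.24 (SE 0.12) that did not pass (limma adjusted p = 0.164).

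Of the small subunit, Rps27l stood at 28.5, 41.8, 41.7, 34.3 and 45.5 FPKM at 5 months and between 23.4 and 28.2 at 15 months (median 26.9). Replicate 0 at 5 months lay just above the older libraries. Rps27l fell by 0.52 (SE 0.16, limma adjusted p = 0.0283).

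Rpl30, a large subunit protein, stood at 37.4, 42.0, 33.2, 38.1 and 36.2 FPKM at 5 months and between 24.5 and 32.2 at 15 months (median 28.4), without overlap. Rpl30 fell by 0.42 (SE 0.12, limma adjusted p = 0.0155). The row of its copy Gm12191 was 323 ± 57.6 FPKM (SD, n = 5) at 5 months and 255 ± 42.2 (n = 6) at 15 months, a difference of -0.34 (SE 0.19, limma adjusted p = 0.209). When the pair was summed, the call was lost, with a difference of -0.35 (SE 0.18, limma adjusted p = 0.167). This sum was chosen after seeing the data.

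**Figure D4:**
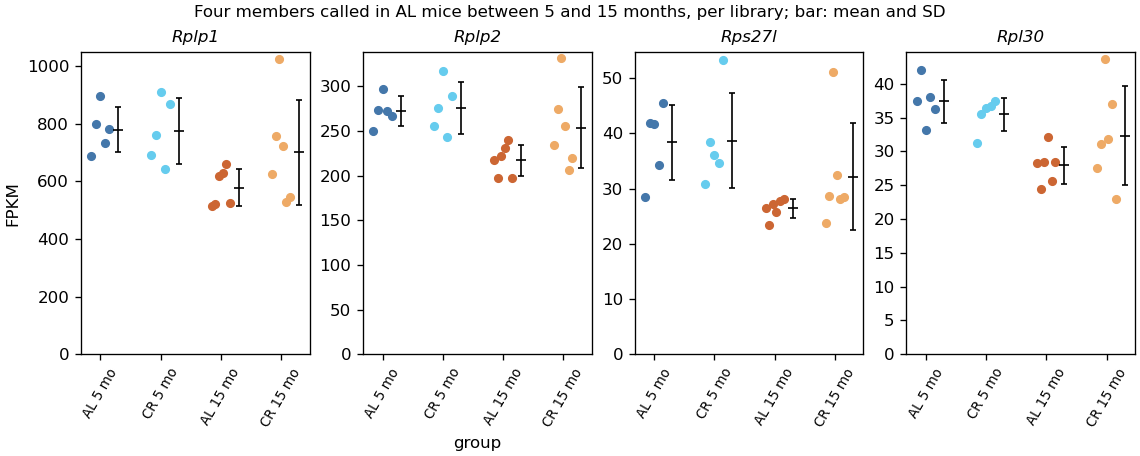
Level in FPKM of Rplp1, Rplp2, Rps27l and Rpl30, called in AL mice between 5 and 15 months, with 1 point per library and the mean and SD of each group. For each of them the AL libraries at 15 months lie below all AL libraries at 5 months, and CR 15 months replicate 2 lies above the rest of its group.

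None of the following members, named here for known roles outside the assembled ribosome, passed the test. Rpl5 and Rpl11, which bind 5S rRNA and hold back the p53 ligase Mdm2, differed by -0.23 (SE 0.13) and -0.21 (SE 0.14). Rpl26, which binds the p53 mRNA, differed by -0.47 (SE 0.22, limma adjusted p = 0.125), and by -0.16 (SE 0.14) when summed with Gm15772. Rps3, with a role in DNA repair, differed by -0.30 (SE 0.13, limma adjusted p = 0.110). Rpl13a, of the interferon-activated translation inhibitor complex, differed by -0.12 (SE 0.13). Rps6 was 189 ± 17.9 FPKM (SD, n = 5) at 5 months and 164 ± 13.9 (n = 6) at 15 months, a difference of -0.20 (SE 0.13, limma adjusted p = 0.266).

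The other members set out for description had values of the same size. Rpsa, the laminin receptor precursor, differed by -0.13 (SE 0.19), Rps14 by -0.33 (SE 0.18), Rps19 by -0.25 (SE 0.16) and Rps27a, which is made as a fusion with ubiquitin, by -0.20 (SE 0.15). Of the large subunit, Rpl10 differed by -0.18 (SE 0.13), Rpl38 by -0.26 (SE 0.16) and Rpl41 by -0.25 (SE 0.16). None of them was called. The 2 members above 0 were Rps27 (0.25, SE 0.55), which has the 2 levels described above, and Rps15a (0.01, SE 0.08). Rps15a, named after its value was seen, was 23.3 ± 0.43 FPKM (SD, n = 5) at 5 months and 23.6 ± 1.35 (n = 6) at 15 months.

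**Figure D5:**
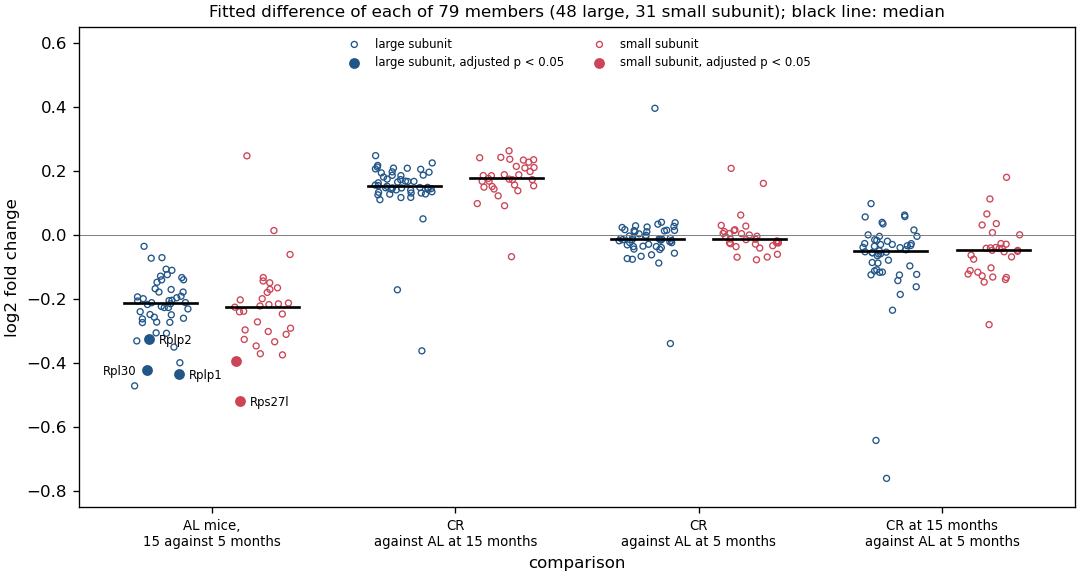
Fitted log2 difference of each of the 79 tested members in 4 comparisons, by subunit, with the median as a black line and called members filled. The 5 called members are all in the comparison of AL mice at 15 against 5 months, where the medians of both subunits lie near -0.2.

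The count of calls rested on single libraries and on the fit. It was 1 without AL 5 months replicate 1, 2 or 4 or AL 15 months replicate 1. It was 2 without AL 5 months replicate 3 or AL 15 months replicate 5, 3 without AL 15 months replicate 0 or 3, and 8 without AL 5 months replicate 0. Over the 11 fits that left out an AL library, 1.27 to 10.1% of the members were called. The share of all genes called in those fits was 14.0 to 20.2%, against 20.6% with every library. The median of the members stayed between -0.29 and -0.18. When only the 2 AL groups were fitted, 20 members were called, all lower. That is 25.3% of the members, against 25.4% of all genes called in the same fit and 12.9% called lower. Rpl30 was called in each of the 11 fits that left out an AL library of either age, Rps27l in 7, Rplp2 in 5 and Rplp1 in 3.

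Other measures of the libraries moved with the members. The dependence of level on transcript length, given as the slope of log2 FPKM on log2 length over genes that are not members (mean ± SD), was -0.16 ± 0.02 in the 5 AL and -0.15 ± 0.03 in the 5 CR libraries at 5 months, and -0.10 ± 0.02 in the 6 AL and -0.11 ± 0.07 in the 6 CR libraries at 15 months. It was steepest, -0.24, in CR 15 months replicate 2, without which its group stood at -0.09 ± 0.03 (n = 5). Over the 22 libraries it had r = -0.83 and rho = -0.80 with the median of the members, and within the groups r ran from -0.96 to -0.52. Short transcripts thus stood higher in the libraries where the members, which are short, stood higher. With this slope as a covariate, no member was called with age, against 13.9% of all genes, 3 had an unadjusted p under 0.05, against 28.4%, and the median was 0.015.

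The markers of the dissected region moved too. Of 8 CA1 pyramidal neuron genes, 6 were called lower with age in AL mice and none higher. Their summed level was 256 to 551 FPKM at 5 months and 182 to 293 at 15 months. Of 10 neocortex and subiculum genes, 5 were called higher and none lower, with sums of 74.7 to 110 FPKM at 5 months and 115 to 209 at 15 months. Among other lists, 4 of 8 choroid plexus genes, 1 of 5 dentate gyrus, 1 of 7 oligodendrocyte and 1 of 6 microglia genes were called lower. CA3 genes gave 1 call higher and 2 lower of 5, astrocyte genes 1 of each of 6, and endothelial, interneuron and erythrocyte genes none of 6, 6 and 5. No marker of these lists was at 0 throughout a group. With the difference of the 2 list scores as a covariate, no member was called, 2 had an unadjusted p under 0.05, and the median was -0.02. That fit called none of all 16978 genes either, with 13.3% at an unadjusted p under 0.05. The difference of the list scores, centred over all libraries, was -2.06 to -0.30 in AL mice at 5 months and 0.74 to 2.82 at 15 months. These ranges do not overlap, so the fit cannot tell region from age in AL mice. Slope, region markers and age moved together, and their part in the members' difference was not tested.

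Scaling changed the size of the age difference. MicroRNA and small nucleolar RNA rows took 40.9 to 64.9% of a library's summed FPKM. With all other rows brought to an equal sum per library, the median of all genes moved to 0.11 and that of the members to -0.10, with no member called, against 5.31% of all genes called lower. Quantile normalization gave 2 calls (2.53%, against 10.9% of all genes called lower) and a median of -0.10. Libraries shifted to a common median gave 8 calls (10.1%, against 13.5%) and a median of -0.26. In each of these fits, the members called were lower.

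CR against AL at 15 months called no member with limma, against 0.742% of all genes tested. One member, Rplp2, had an unadjusted p under 0.05 (1.27%, against 17.1%). The comparison uses the same 6 AL libraries as the age comparison. The members' median was 0.17, with 76 of 79 above 0, against 49.6% of all genes. It was 0.15 for large and 0.18 for small subunit members. Without CR 15 months replicate 2 the median was 0.05, with 71 of 79 above 0 and no member at an unadjusted p under 0.05. The region markers moved here as well. The CA1 genes summed to 182 to 293 FPKM in AL and 101 to 466 in CR mice, and the neocortex and subiculum genes to 115 to 209 and 76.0 to 207, and none of either list was called. With the region score as a covariate the members' median was 0.08, and with equal sums over rows other than small RNAs it was 0.10. It was 0.12 with quantile normalization and 0.19 with a common median. With trends on length and GC content removed it was 0.16. In that fit 18 of 79 members had an unadjusted p under 0.05, against 20.0% of all genes. With the length slope as a covariate it was 0.13, with 14 such members, against 18.3% of all genes. No member was called in any of these fits. The part of the region in the members' difference was not tested further.

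Rplp2 and Rps26 were among the members with the smallest p at this age. Rplp2 lay between 207 and 331 FPKM in CR mice, with a median of 245, against 197 to 239 in AL mice. The ranges overlapped, and the highest value was that of replicate 2. The difference was 0.21 (SE 0.10, limma adjusted p = 0.279) and 0.13 without that library. Rps26 lay at 226 to 396 FPKM in CR and 196 to 249 in AL mice and differed by 0.23 (SE 0.12, limma adjusted p = 0.303), or 0.11 without replicate 2.

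CR against AL at 5 months called no member and no gene at all (0.0%) with limma, and no member had an unadjusted p under 0.05, against 4.65% of all genes. The median of the members was -0.01. The lower and upper quartiles of the 79 members were -0.03 and 0.01. The sign of the median rested on single libraries: it was -0.08, with 5 of 79 above 0, without AL 5 months replicate 0 and 0.04, with 66 above 0, without CR 5 months replicate 0. The smallest p belonged to Rpl3l, at 0.331 ± 0.080 FPKM in CR and 0.229 ± 0.074 in AL mice (SD, n = 5 each), a difference of 0.40 (SE 0.23, limma adjusted p = 1.0). Rps2 differed by 0.21 (SE 0.18), with AL 5 months replicate 0 at 74.4 FPKM and the other AL libraries at 134 to 146. Rpl15 differed by -0.09 (SE 0.11).

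Restricted mice at 15 months set against AL mice at 5 months gave no called member with limma, against 3.12% of all genes, and 1 had an unadjusted p under 0.05 (1.27%, against 19.3%). The median was -0.05, with 15 of 79 above 0. Without CR 15 months replicate 2 it was -0.18, with 1 above 0 and 14 at an unadjusted p under 0.05. Its sign turned with the length slope as a covariate (0.16, with 75 above 0). It also turned with the region score (0.06, with 63 above 0) and with quantile normalization (0.02, with 50 above 0). With the slope, 21 of 79 members had an unadjusted p under 0.05, against 16.5% of all genes. In the main fit, the member at an unadjusted p under 0.05 was Rpl26. It stood at 33.5, 34.7, 39.5, 31.7 and 39.3 FPKM in AL mice at 5 months. In CR mice at 15 months it lay between 11.7 and 40.5 FPKM, with a median of 23.0. Rpl26 differed by -0.64 (SE 0.22, limma adjusted p = 0.107). It passed without CR 15 months replicate 2 (-0.81, limma adjusted p = 0.0206), and the sum with Gm15772 differed by -0.03 (SE 0.14). Next in order were Rpl30 (-0.23, SE 0.12) and Rps27l (-0.28, SE 0.16).

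The age by diet interaction, which asks whether the diets differed in their change with age, called no member and no gene (0.0%) with limma. No member had an unadjusted p under 0.05, against 7.66% of all genes. The median was 0.18, or 0.06 without CR 15 months replicate 2. The smallest p belonged to Rpl15 (0.25, SE 0.15), Rplp0 (0.28, SE 0.17) and Rpl30 (0.26, SE 0.17).

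Genes around the ribosome were counted for the same comparisons, to be read against the 9.97% of all genes called lower and 20.6% called in all with age in AL mice. Of 6 ribosomal proteins and paralogs that the symbol rule leaves out, such as Fau and Rpl22l1, none was called with age in AL mice, and all 6 were below 0 (median -0.22). Of 25 ribosome biogenesis genes, 6 were called lower and 1 higher (median -0.14). Polr1b, a core subunit of RNA polymerase I, rose by 0.55 (SE 0.09, limma adjusted p = 0.000757), from 4.44 ± 0.45 to 6.51 ± 0.41 FPKM (SD, n = 5 and 6). Bop1, needed to process the large subunit rRNA, fell by 0.32 (SE 0.09, limma adjusted p = 0.0165), and its call was lost without AL 5 months replicate 1 (limma adjusted p = 0.0518). With CR at 15 months, Polr1b was the single call of this list, lower by 0.44 (log2 difference -0.44, SE 0.09, limma adjusted p = 0.0342). It was called in 3 of the 12 fits that left out a library of either group, with log2 differences of -0.50 to -0.38 and limma adjusted p up to 0.0727. Both comparisons use the AL libraries at 15 months.

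Of 25 translation initiation and elongation genes, 3 were called lower with age and none higher (median -0.09). Eif4a1, an RNA helicase of initiation, fell by 0.43 (SE 0.09, limma adjusted p = 0.00390), and Eef1b2, a nucleotide exchange factor of elongation, fell by 0.32 (SE 0.09, limma adjusted p = 0.0169). Of 76 mitochondrial ribosomal protein genes, whose products work in a separate ribosome, 14 were called lower and none higher (median -0.16). Mrpl20 fell by 0.69 (SE 0.10, limma adjusted p = 0.000403) and Mrpl52 by 0.58 (SE 0.10, limma adjusted p = 0.000757).

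Abundant genes with other roles had medians like those of the members. Of 36 nuclear-encoded complex I genes, 8 were called lower and none higher with age, all 36 were below 0, and the median was -0.23. Ndufa3 fell by 0.41 (SE 0.12, limma adjusted p = 0.0184) and Ndufa5 by 0.40 (SE 0.13, limma adjusted p = 0.0325). Of the 11 fits that left out an AL library, Ndufa3 was called in 9 and Ndufa5 in 4. Of 14 constitutive proteasome core genes, 7 were called lower and none higher, with a median of -0.26. Psmb5, the chymotrypsin-like catalytic subunit, fell by 0.57 (SE 0.10, limma adjusted p = 0.000661), and Psmb3 fell by 0.36 (SE 0.10, limma adjusted p = 0.0125). With CR at 15 months, none of these last 4 lists held a call, and their medians were 0.08, 0.07, 0.12 and 0.11, or 0.041, 0.0076, 0.047 and 0.053 without CR 15 months replicate 2.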

How the data were processed

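CA1 mRNA was measured in 22 libraries of 4 groups, 1 per mouse. The deposited FPKM came from Cufflinks as the authors ran it, on TopHat alignments to mm10 cleared of duplicates with Picard, with corrections for fragment bias and a weighting of reads with several mapping positions. The gene annotation release is not given in the sources used here. All 22 columns were used. The values hold no read counts, and the study's methods give depth only as an average over samples. The depth behind each library is therefore unknown here, and the variation between mice sets the precision.

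All 16978 genes of 23361 that averaged 0.1 FPKM or more, among them 79 of the 80 members, were fitted as log2(FPKM + 0.1) with limma 3.58.1 in R 4.3.3 (4 group means in 1 model, eBayes with trend). A call is an adjusted p under 0.05 (Benjamini-Hochberg over all genes tested). Fold changes are on the log2(FPKM + 0.1) scale and understate those of low genes. Single members were also compared by exact two-sided permutation. The steps were tested on simulated data. Members, lists and tests were chosen with earlier results of these data known. The members named are the 4 largest changes in each direction among those called, the 3 of smallest p where none was, the 3 highest and lowest in level, paralogs with their parents, and a fixed set of known members (Rplp0, Rplp1, Rplp2, Rpsa, Rps3, Rps6, Rps14, Rps19, Rps27a, Rpl5, Rpl10, Rpl11, Rpl13a, Rpl26, Rpl38 and Rpl41), with the 2 largest called changes of each pathway list. Some genes that this rule covers are not reported here.

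Sequences and coordinates are from GENCODE M21 (GRCm38) and promoters from RefSeq (GRCm38.p6). Copies were found with blastn. The region score is the mean log2 level of the neocortex and subiculum list minus that of the CA1 list. Alternatives were pseudocounts of 1 and 0.01, all genes above 0 in any library, genes with a mean of at least 1 FPKM, 3 scalings, eBayes without trend, separate fits, the replicate number as a block, the region score, removal of trends on length and GC content, and each library left out. The length slope and the summed pairs were added after seeing the data. In 31 same-numbered pairs, deviations from the group means had r from -0.139 to 0.163, above 0.1 in 2. The labels state no pairing of mice by number, and these values gave no clear sign of one. Tables and figures used Python 3.11.15, pandas 2.3.3, numpy 2.4.6, scipy 1.17.1 and matplotlib 3.10.9.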

Additional observations from a re-analysis of the deposited data

Results flagged for a closer look

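In 10 of 60 groups of libraries looked at (13 members by group, and 2 summaries), 1 library lay far from the others by Dixon's criterion, where chance gives about 1 in 20. Of these, 6 are CR 15 months replicate 2. The members move together, so the groups are not independent and their count cannot be measured against that chance rate. Its median over the members was 0.61 (log2), with the next library at 0.07. It had 157 FPKM for Rpl15 (next 117), 396 for Rps26 (next 246), 51.1 for Rps27l (next 32.5) and 273 for Rps6 (next 186). The large minus small subunit difference of this library, -0.03, did not stand apart.

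Rps27 stood apart in AL 5 months replicate 4 (29.4 FPKM, next 8.21), CR 5 months replicate 0 (39.5 FPKM, next 9.54) and CR 15 months replicate 2 (39.4 FPKM, next 10.2). Rps2 was low in AL 5 months replicate 0, at 74.4 FPKM with the next at 134. Rpl39l was at 1.18 FPKM in AL 5 months replicate 2 and at most 0.216 in the rest of its group.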

How the results depend on the processing

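For age in AL mice, the 5 calls became 3 with all genes above 0 in any library (3.75%, against 16.7% of all genes). The count was 8 with a common median, 2 with quantile normalization and 0 with an equal sum over rows other than small RNAs. It was 20 in the separate fit, 0 with the region score and 0 with the length slope. With trends on length and GC content removed it was 9 (11.4%, against 23.1% of all genes), with a median of -0.17. The slope was chosen after seeing the data. With the slope the median moved to 0.015, the fitted large minus small difference moved from 0.012 to -0.018, and Rps6 turned to 0.033. Leaving out 1 library gave 1 to 8 calls (1.27 to 10.1%, against 14.0 to 20.2% of all genes). The fitted large minus small difference was then 0.0042 to 0.043. For CR at 15 months against AL at 5 months, leaving out 1 library gave 0 to 1 calls. The 1 call, without CR 15 months replicate 2, is 1.27% of the members, against 5.45% of all genes. With the replicate number as a block, 7 members were called with age (8.86%, against 22.1% of all genes). The labels state no pairing of mice by these numbers. The other 3 contrasts called no member in any alternative. The causes were not tested, and fits without a library also have fewer samples. Medians and subunit differences otherwise moved by less than the pooled SD between libraries (0.21 and 0.024). The first of these is about the size of the age median itself, -0.22, so a median within this limit need not be stable. With the region score the age median was -0.02, and with quantile normalization or equal sums it was -0.10. The depth of each library is not known here, so no limit from counting is given for the near-silent paralogs.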
